A study of Mus musculus with 17 samples.

Results

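The Btg and Tob genes encode a family of small antiproliferative proteins, and their transcripts were followed here in haematopoietic stem cells (HSCs) of young and old mice. The 5 members, Btg1, Btg2, Btg3, Tob1 and Tob2, were taken by the symbols of their Ensembl gene IDs. The rule itself used no measured value, but earlier results of these data were known when the members and lists were chosen. They are 5 of 54838 genes in the count files, and all 5 were among the 24523 genes with enough reads to be tested. Btg4, the remaining gene of the family, was looked at beside them.

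RNA was sequenced in bulk from sorted HSCs of C57BL/6 Jrj mice. The sort took cells with Sca1, cKit and CD150 on their surface and without CD48 or lineage markers, after enrichment of the marrow for c-kit. Young control mice (4 libraries) and young mice given CCCP (5 libraries) were 8 to 12 weeks old. Old control mice (3 libraries) and old mice given Mito-Q (5 libraries) were over 18 months old. CCCP is a protonophore that uncouples respiration from ATP synthesis in mitochondria, and was given intraperitoneally as 1 injection of 0.3 mg/kg. Mito-Q is a ubiquinone linked to a cation that carries it into mitochondria, where it acts as an antioxidant, and was given by the same route as 5 daily injections of 2 mg/kg. The strain was the same in all 4 groups, and the labels name no other genotype. The labels did not say whether vehicle was given to control mice, when cells were taken relative to the injections, or whether each library was a separate mouse, so the p-values measure the spread between libraries.

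Btg and Tob proteins share an amino-terminal domain that binds the Caf1 deadenylases of the CCR4-NOT complex, which shorten the poly(A) tails of messenger RNAs. Through this contact they speed the decay of transcripts, and when overexpressed they slow entry into the cell cycle. Btg2 is also known as an immediate early gene and a target of p53, Btg1 as a gene of quiescent lymphocytes and a target of forkhead factors, and Btg3 as an inhibitor of E2F1. Tob1 and Tob2 have a longer carboxy-terminal part that binds the cytoplasmic poly(A)-binding protein.

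The promoters of the 3 members that carry the letters TGACG, the core of the cAMP response element (CRE), are shown because Btg1 and Btg2, the members with called changes below, are among them. The display was thus chosen by the calls. Tob1, also among them, had no called change, and a link of these letters to the changes was not tested. Each sequence is the 250 bases before a RefSeq transcription start on GRCm38.p6, written 5′ to 3′ on the strand of the gene. Capitals mark TGACG or its reverse complement. The Btg1 sequence lies at chr10:96616751-96617000 on the plus strand, that of Btg2 at chr1:134079156-134079405 on the minus strand and that of Tob1 at chr11:94211204-94211453 on the plus strand.
Btg1: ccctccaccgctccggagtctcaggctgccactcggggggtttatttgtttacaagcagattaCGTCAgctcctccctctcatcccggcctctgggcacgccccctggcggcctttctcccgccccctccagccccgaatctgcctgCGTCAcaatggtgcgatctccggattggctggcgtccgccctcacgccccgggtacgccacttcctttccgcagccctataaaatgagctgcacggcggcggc
Btg2: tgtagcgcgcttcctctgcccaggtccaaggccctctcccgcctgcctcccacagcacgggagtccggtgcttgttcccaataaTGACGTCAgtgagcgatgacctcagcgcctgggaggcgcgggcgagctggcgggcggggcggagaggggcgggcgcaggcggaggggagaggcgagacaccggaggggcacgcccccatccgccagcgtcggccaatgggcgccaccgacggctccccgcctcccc
Tob1: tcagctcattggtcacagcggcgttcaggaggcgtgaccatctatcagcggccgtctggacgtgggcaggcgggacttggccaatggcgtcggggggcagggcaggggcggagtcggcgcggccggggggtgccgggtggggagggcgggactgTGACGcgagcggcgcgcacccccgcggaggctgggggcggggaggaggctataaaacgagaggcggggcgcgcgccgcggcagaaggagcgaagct

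The Btg2 promoter held the complete palindromic CRE, TGACGTCA, which begins 166 bases before the start and contains TGACG on both strands. The Btg1 promoter held the core at 187 and 103 bases before the start, and the Tob1 promoter held it at 96 bases. Of 32851 RefSeq promoter windows of the same length, 17.8% held TGACG and 1.55% held TGACGTCA on either strand. A forkhead motif, GTAAACA, lay 204 bases before the Btg1 start and in 3.17% of all windows. The GC box, GGGCGG, was present in at least 1 window of each member and in 32.7% of all windows. RefSeq gave 2 starts for Btg3, and neither of its windows held TGACG. The Tob2 window at chr15:81858327-81858576 held the GC box alone among the motifs searched. The AP-1 motif TGANTCA (6.75% of all windows), the CArG box (1.47%) and the p53 decamer (7.13%) had no match in the member windows. These matches describe letters in a window, and binding was not measured in these samples.

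**Figure D1:**
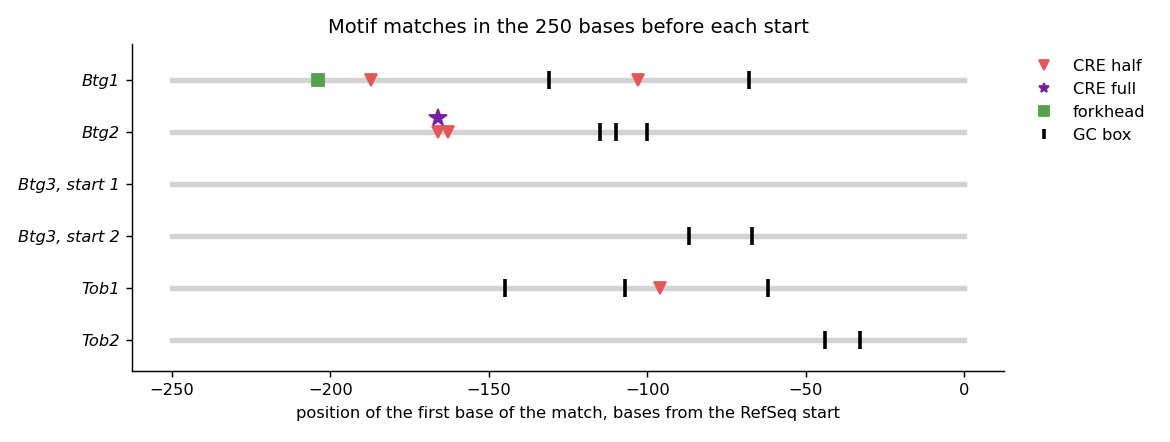
Positions of the motifs found in the promoter windows of the 5 members, with Btg3 drawn for its 2 starts; the horizontal axis gives bases before the RefSeq transcription start and each mark is a match on either strand. The complete CRE of Btg2 stands at 166 bases, and the CRE cores of Btg1 stand at 187 and 103 bases.

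Reads in genes ran from 5649611 to 8120443 per library, and a count of 3 reads corresponded to 0.298 to 0.653 CPM, the count scaled to library size. Reads counted outside genes, in more than 1 gene or at more than 1 place made up 37.7% to 76.2% of the file entries. Young CCCP 3 stood apart, with the highest share of such reads and the lowest median Spearman correlation with the other libraries (0.682, against up to 0.863). Old control 1 and young control 3 followed, at 0.799 and 0.803, so results that rest on these libraries are given with and without them. The HSC genes Kit, Ly6a (Sca1) and Slamf1 (CD150) were present in every group, at group means of 553 to 1298, 176 to 596 and 51.9 to 161 CPM. Cd48, absent from the sort gate, averaged 0.238 to 7.47 CPM. The tissue is a bulk sample, in which fewer cells of a type and less RNA per cell cannot be told apart.

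Btg2, the immediate early member, had the widest range of the family, and its level separated control from treated mice in opposite directions at the 2 ages. In young controls it was at 259, 246, 286 and 261 CPM. In young mice given CCCP it was at 17.6, 20.0, 1.94, 19.9 and 6.56 CPM. Every CCCP library thus lay below every young control, and young CCCP 3, with 10 reads of Btg2, was the lowest. In old controls Btg2 was at 13.7, 38.3 and 48.8 CPM. In old mice given Mito-Q it was at 1083, 1174, 1273, 849 and 904 CPM. The Mito-Q libraries lay above all others, young controls included.

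Btg1, which is abundant in resting lymphocytes, was also low in young CCCP and old control libraries, over a narrower range than Btg2, and young controls and old Mito-Q mice overlapped. It was at 130, 178, 176 and 190 CPM in young controls. It was at 44.8, 37.0, 49.0, 52.3 and 52.3 CPM after CCCP. The lowest young control was therefore above the highest CCCP library, and young CCCP 3 was in the middle of its group. Old controls were at 44.7, 59.98 and 47.6 CPM. Old Mito-Q libraries were at 133, 176, 158, 173 and 155 CPM, all above every old control and within the span of the young controls.

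**Figure D2:**
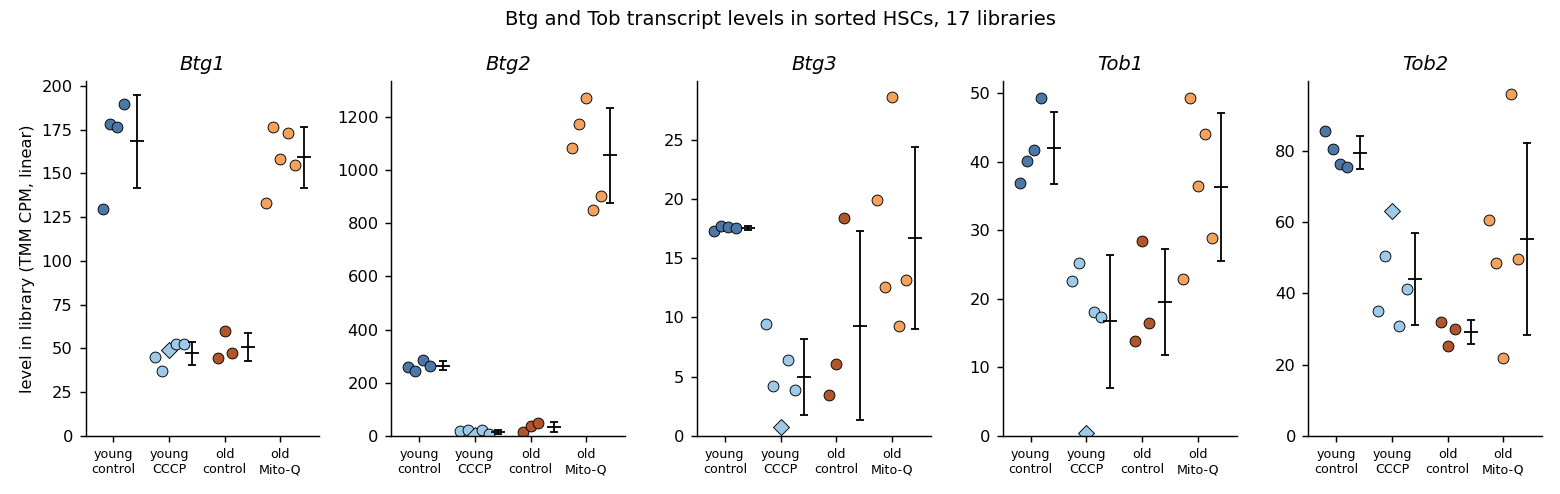
TMM-scaled CPM of the 5 members in each of the 17 libraries, 1 panel per gene with its own vertical axis; points are libraries, bars are the group mean ± SD, and the diamond marks young CCCP 3. The Btg1 and Btg2 values of young CCCP and old control libraries lie below all young controls and all old Mito-Q libraries, while Btg3, Tob1 and Tob2 overlap between more groups.

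Btg3 was the least abundant member and the most even in young controls. There it was at 17.3, 17.7, 17.6 and 17.6 CPM, a mean of 17.6 ± 0.163 CPM (SD, n = 4). These were 81 to 133 reads, whose counting error alone exceeds that spread, so the evenness is not read as a trait of Btg3. After CCCP it was at 9.43, 4.19, 0.778, 6.43 and 3.84 CPM, below all young controls, and the lowest value, in young CCCP 3, was 4 reads. Old controls spread widely, at 3.45, 6.09 and 18.4 CPM, and old control 3 exceeded every young control. Old Mito-Q libraries were at 19.9, 12.6, 28.6, 9.28 and 13.1 CPM and overlapped both control groups. The exons of Btg3 overlap those of Cxadr on the other strand by 695 bases. Whether the counting used strand is not given in the sources used here, and Cxadr itself had 0 to 100 reads per library.

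Tob1 and Tob2, the members with the long carboxy-terminal part, were both highest on average in young controls. Tob1 was at 36.9, 40.1, 41.8 and 49.3 CPM in young controls. It was at 22.5, 25.1, 0.389, 18.1 and 17.3 CPM after CCCP, where the lowest value, again in young CCCP 3, was 2 reads and under the 3-read floor. All CCCP libraries were below all young controls. Tob1 was at 13.8, 28.4 and 16.4 CPM in old controls, also below all young controls. It was at 22.9, 49.3, 36.4, 44.1 and 28.9 CPM after Mito-Q, which overlapped both control groups.

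Tob2 was at 85.8, 80.6, 76.4 and 75.6 CPM in young controls. It was at 35.0, 50.6, 63.2, 31.0 and 41.3 CPM after CCCP, with young CCCP 3 the highest of its group rather than the lowest. Both this group and the old controls, at 32.0, 25.3 and 30.1 CPM, were below every young control. Old Mito-Q libraries had the widest spread, at 60.7, 48.6, 21.7, 96.0 and 49.7 CPM, from below all old controls to above all young controls. Tob2 overlaps the antisense gene Gm49476 by 289 exonic bases, and that gene had 0 reads in every library.

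The comparison of old with young controls asked how HSC transcripts differ with age. Btg1 and Btg2 were lower in old controls and the other members were not called. Btg2 averaged 33.6 ± 18.0 CPM in old controls (SD, n = 3) and 263 ± 16.99 CPM in young controls (n = 4), a log2 change of -2.97 (SE 0.53, edgeR quasi-likelihood adjusted p = 0.00181). Btg1 averaged 50.8 ± 8.11 against 168 ± 26.5 CPM, a log2 change of -1.73 (SE 0.29, edgeR adjusted p = 0.00113). Of all genes tested, 1.69% were called at an adjusted p below 0.05 in this comparison, 1.17% as lower. Thus 2 of 5 members were called lower, and 4 of 5 (not Btg3) had old controls wholly below young controls, as had 6.5% of all genes. The median log2 change was -1.45 over the members and 0.16 over all genes, and the latter was -0.35 without old control 1, where 404 genes were called higher and 280 lower, against 128 and 287 with it.

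Tob2 missed the threshold in that comparison, at a log2 change of -1.45 (SE 0.41, 95% interval -2.30 to -0.60, edgeR adjusted p = 0.0773). It was called in 5 of 29 alternative analyses, among them DESeq2 (adjusted p = 0.0175) and the fit without young CCCP 3 (edgeR adjusted p = 0.0395). Tob1 changed by -1.11 on the log2 scale (SE 0.66, edgeR adjusted p = 0.472) and Btg3 by -0.92 (SE 0.76, edgeR adjusted p = 0.665), neither of them called. The Btg3 change ran from -1.90 without old control 3 to -0.46 without old control 1. Without old control 1 the log2 changes of Btg1 and Btg2 were -1.60 and -2.54 (edgeR adjusted p = 0.0103 and 0.0128).

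The comparison of old Mito-Q mice with old controls asked what a mitochondrial antioxidant does to transcripts of old HSCs. Btg2 rose to 1056.5 ± 179 CPM (SD, n = 5), a log2 change of 4.98 (SE 0.58, edgeR adjusted p = 6.93e-06). Btg1 rose to 159 ± 17.3 CPM, a log2 change of 1.65 (SE 0.28, edgeR adjusted p = 0.00178). In this comparison 0.542% of all genes were called, 0.526% as higher, and 2 of 5 members were called higher. The same 2 members had Mito-Q libraries wholly above old controls, as had 3.87% of all genes. The log2 changes of Btg3, Tob1 and Tob2 were 0.84, 0.90 and 0.92 (edgeR adjusted p = 0.791, 0.703 and 0.421), and that of Btg3 ran from 0.38 without old control 1 to 1.83 without old control 3. The median over all genes was -0.12, and 0.31 without old control 1. The Btg1 call was lost when old control 3 was left out, with a log2 change of 1.63 and an edgeR adjusted p of 0.0533. Without old control 1 the log2 changes were 1.51 for Btg1 and 4.54 for Btg2 (edgeR adjusted p = 0.0302 and 0.000161).

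The comparison of young CCCP mice with young controls asked what mitochondrial uncoupling does to transcripts of young HSCs. Btg2 fell to 13.2 ± 8.38 CPM (SD, n = 5), a log2 change of -4.30 (SE 0.45, edgeR adjusted p = 7.73e-07). Btg1 fell to 47.1 ± 6.40 CPM, a log2 change of -1.84 (SE 0.25, edgeR adjusted p = 3.67e-05). Of all genes, 0.718% were called and 0.652% were called lower, while 2 of 5 members were called lower. All 5 members had CCCP libraries wholly below young controls, as had 2.89% of all genes. The members' median log2 change was -1.82, beside 0.21 over all genes.

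The other 3 members did not pass the test after CCCP. Btg3 changed by -1.82 (SE 0.66), Tob1 by -1.33 (SE 0.56) and Tob2 by -0.85 (SE 0.35) on the log2 scale, with edgeR adjusted p = 0.307, 0.385 and 0.37. Their 95% intervals, -3.17 to -0.47, -2.48 to -0.17 and -1.56 to -0.13, did not include 0. Without young CCCP 3 the log2 changes were -1.85 for Btg1 and -4.03 for Btg2, both called (edgeR adjusted p = 4.65e-05 and 1.03e-07). The same fit gave -1.55, -1.02 and -1.01 for Btg3, Tob1 and Tob2 (edgeR adjusted p = 0.341, 0.299 and 0.26).

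**Figure D3:**
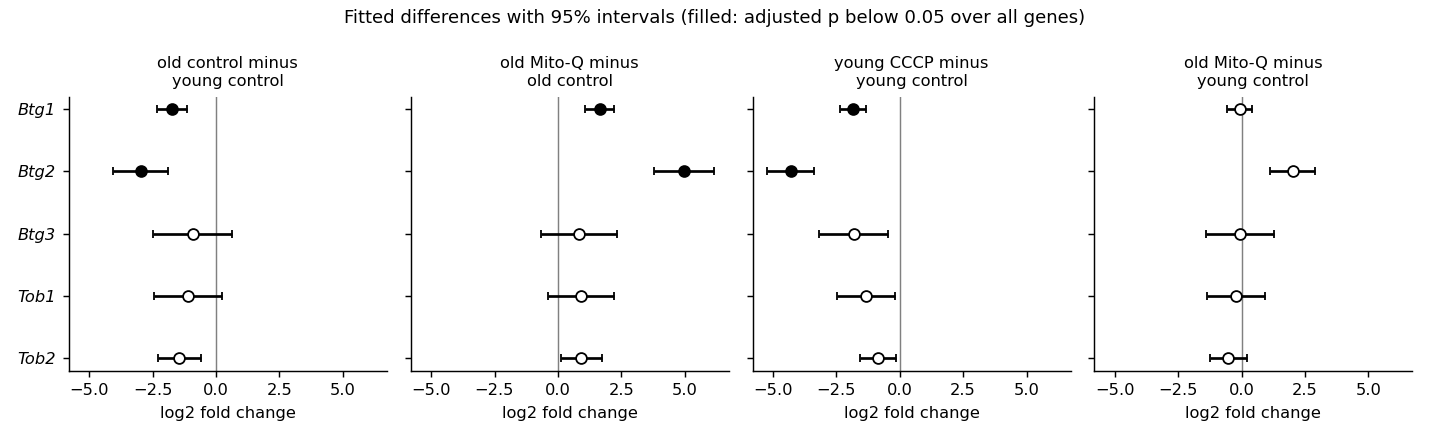
Log2 fold change of each member in the comparisons of the groups, from the edgeR fit over all 17 libraries; points are estimates, bars are 95% intervals and filled points have an adjusted p below 0.05. Btg1 and Btg2 are filled on the negative side for old against young controls (-1.73 and -2.97) and for CCCP (-1.84 and -4.30), and on the positive side for Mito-Q against old controls (1.65 and 4.98).

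Old Mito-Q mice were also set against young controls, and this comparison separated Btg1 from Btg2. The log2 difference of Btg1 was -0.08 (95% interval -0.58 to 0.42, edgeR adjusted p = 1). That of Btg2 was 2.01 (SE 0.44, 95% interval 1.11 to 2.90, edgeR adjusted p = 0.0677), with the Mito-Q libraries wholly above the young controls. In this comparison edgeR called 0.143% of all genes and 0 of 5 members, while 1 member, Btg2, had an unadjusted p below 0.05 and DESeq2 called 1. Groups were wholly apart on the higher side for 1 of 5 members and 1.65% of genes. The Btg2 difference was called in 9 of 29 alternative analyses, including the fits without young CCCP 3 (log2 2.01, edgeR adjusted p = 0.00282) and without old control 1 (2.00, edgeR adjusted p = 0.0299), DESeq2 (adjusted p = 0.00149) and limma-voom (adjusted p = 4.38e-05). Over the alternatives its log2 difference ran from 1.93 to 2.14 and its adjusted p from 6.78e-07 to 0.299. The log2 differences of Btg3, Tob1 and Tob2 were -0.07, -0.21 and -0.52, and none was called.

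Between the low groups, old controls and CCCP-treated young mice, no member was called, and 2.87% of all genes were. No member had these groups wholly apart, and 9.54% of genes had. With shares this small, finding none among 5 genes is common, so these counts are not read as a likeness of the groups. Old controls minus CCCP gave log2 differences of 0.11 for Btg1 (95% interval -0.44 to 0.65, edgeR adjusted p = 0.914) and 1.33 for Btg2 (0.41 to 2.25, edgeR adjusted p = 0.109). Btg2 was the 1 member with an unadjusted p below 0.05 there, DESeq2 called 1 member, and the fit without old control 1 called Btg2 (log2 1.76, edgeR adjusted p = 0.0188). Between the treated groups, old Mito-Q exceeded young CCCP by 1.76 for Btg1 and 6.31 for Btg2 on the log2 scale (edgeR adjusted p = 3.25e-05 and 3.1e-09). That comparison called 1.37% of genes, 1.13% as higher, and 2 of 5 members as higher, with the groups wholly apart for the same 2 members and 3.84% of genes. These comparisons share libraries with the ones above and are given side by side, not as separate evidence.

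By mean level, Btg2 was ordered old Mito-Q, young control, old control and young CCCP, and only the step from young to old control passed the test. For Btg1 the order was young control, old Mito-Q, old control and young CCCP, and only the middle step passed. For Btg3 and Tob1 the order was the same as for Btg1, and all neighbouring groups overlapped. For Tob2 young CCCP came before old control, again with overlap between all neighbours.

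Levels of different members can be compared per kilobase of merged exons. In young controls the mean CPM per kb was 95.9 for Btg2, 31.9 for Btg1, 18.4 for Tob1, 11.9 for Tob2 and 4.38 for Btg3. After CCCP the order changed to 8.92 for Btg1, 7.29 for Tob1, 6.63 for Tob2, 4.81 for Btg2 and 1.23 for Btg3. Btg2 was thus the leading member in young controls and the fourth after CCCP. In old controls the means were 12.2 for Btg2, 9.62 for Btg1, 8.54 for Tob1, 4.37 for Tob2 and 2.32 for Btg3. After Mito-Q, Btg2 averaged 385 CPM per kb and Btg1 30.2, with Tob1 at 15.9, Tob2 at 8.30 and Btg3 at 4.16. By the length of the longest transcript, Tob2 came first after CCCP, at 10.6, before Btg1 at 9.41 and Tob1 at 7.29. That length also put Tob2 above Tob1 in young controls, at 19.2 and 18.4. Per kb of merged exons, Tob1 was at 0.17 in young CCCP 3 and at 7.55 or more in the other CCCP libraries. Its place below Btg1 after CCCP, by merged exons, therefore rests on young CCCP 3.

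As a share of the family's summed CPM per kb, Btg2 had a median of 58.8% in young controls (range 56.5% to 62.0%) and 19.8% after CCCP (3.57% to 23.1%). Its median share was 32.4% in old controls (19.8% to 41.3%) and 86.7% after Mito-Q (81.8% to 89.2%). Those ranges overlapped only between old controls and CCCP. The Btg1 share had medians of 20.4%, 31.6%, 26.4% and 6.78% in young control, young CCCP, old control and old Mito-Q. Shares of a sum are tied together, so a larger Btg2 share by itself lowers that of Btg1. The Btg1 level itself went in the same direction as Btg2, at means of 31.9, 8.92, 9.62 and 30.2 CPM per kb in the same order. With the length of the longest transcript in place of merged exons, the median Btg2 shares were 55.3%, 17.4%, 30.0% and 85.5% in the same order. The 3.57% came from young CCCP 3, where Tob2 took 47.8% and Btg1 46.8%.

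**Figure D4:**
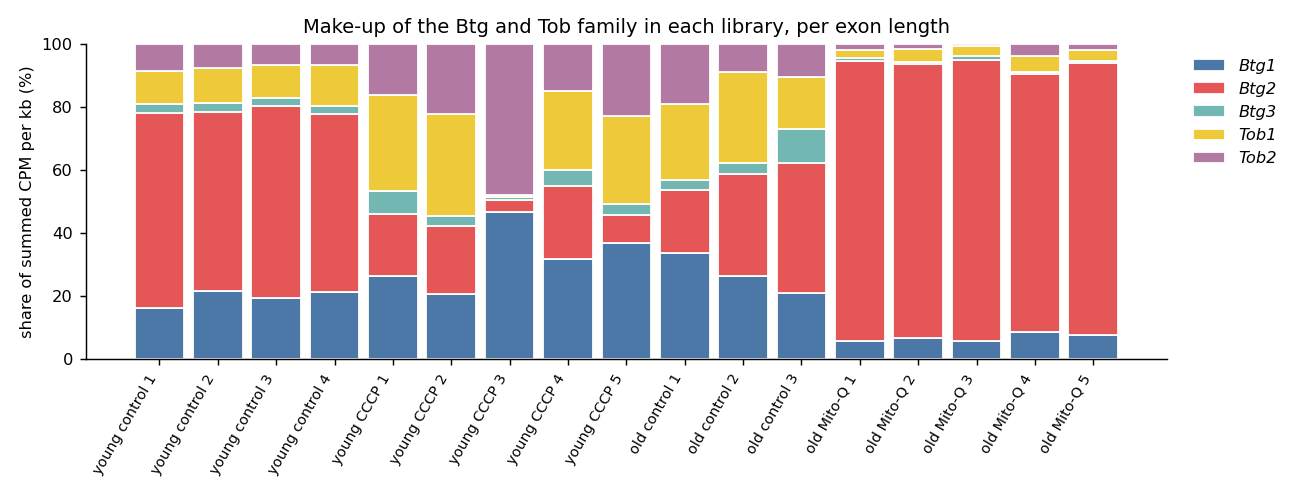
Share of each member in the summed CPM per kb of merged exons of the 5 members, 1 stacked bar per library, grouped by condition, with a vertical axis from 0 to 100%. Btg2 takes 81.8% to 89.2% of the bar in old Mito-Q libraries and 3.57% to 23.1% in young CCCP libraries.

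The partners of the family in messenger RNA decay were followed by lists. By edgeR 0 of the 12 genes of the CCR4-NOT complex were called after Mito-Q or CCCP, with 2 at an unadjusted p below 0.05 in each and 0 called by DESeq2, and 1 was lower in old than in young controls. This was Cnot1, the scaffold of the complex, at 69.1 ± 11.3 against 220.2 ± 25.7 CPM (log2 change -1.67, edgeR adjusted p = 0.00491), which was not called without old control 2 or 3 (adjusted p = 0.055 and 0.0745). The genes of smallest p after Mito-Q and CCCP were Cnot6, a deadenylase subunit (log2 0.90, edgeR adjusted p = 0.314), and Cnot3 (0.99, adjusted p = 0.353). The list's median log2 changes were -0.53 with age, 0.44 with Mito-Q and -0.01 with CCCP, beside 0.16, -0.12 and 0.21 over all genes. Of 18 other genes of poly(A) tail shortening, poly(A) binding and decapping, 0 were called by edgeR in these 3 comparisons. At an unadjusted p below 0.05 there were 3, 4 and 2 of them with age, Mito-Q and CCCP, and DESeq2 called 2, 0 and 1. Their smallest p belonged to Pan3 with age (log2 -1.10, edgeR adjusted p = 0.0912) and with Mito-Q (0.75, adjusted p = 0.406), and to Pabpc1 with CCCP (-0.89, adjusted p = 0.0917). In Mito-Q mice against young controls, Cnot1 (log2 -1.03, edgeR adjusted p = 0.246) and Patl1 (-0.77, adjusted p = 0.785) had the smallest p of the 2 lists.

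Among 18 proteins that bring CCR4-NOT to particular transcripts, 3 were called lower with age, 3 higher with Mito-Q and 2 lower with CCCP. Of all genes, 1.17%, 0.526% and 0.652% were called in those directions. Zfp36 is also among the 24 immediate early genes below, so the 2 lists are not separate for it. Zfp36, which binds AU-rich elements, averaged 701 CPM in young controls and 54.7 CPM in old controls (log2 -3.68, edgeR adjusted p = 1e-04). It averaged 1545 CPM after Mito-Q (log2 4.82 against old controls, edgeR adjusted p = 4.76e-06) and 34.6 CPM after CCCP (log2 -4.34, adjusted p = 2.85e-07). Cpeb2, a cytoplasmic polyadenylation element binding protein, changed by -4.31, 4.12 and -3.16 on the log2 scale (edgeR adjusted p = 0.00111, 0.0018 and 0.00163). Rc3h1, the gene of Roquin, changed by -1.35 with age and 1.33 with Mito-Q (edgeR adjusted p = 0.0214 and 0.0367), and these calls were lost in 7 and 18 of 29 alternative analyses. The median log2 changes of this list were -0.64, 0.46 and -0.36 with age, Mito-Q and CCCP, beside 0.16, -0.12 and 0.21 over all genes. Mito-Q mice against young controls gave no call in it by edgeR or DESeq2 (2 genes at an unadjusted p below 0.05), and the smallest p was that of Zfp36 (log2 1.14, edgeR adjusted p = 0.544).

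Upstream regulators and protein partners of the family (14 genes) had 0 edgeR calls in the 4 comparisons. With age 3 of them had an unadjusted p below 0.05 and DESeq2 called 1, and with Mito-Q 1 had such a p and DESeq2 called 0. Foxo3, a forkhead factor, was at 35.5 ± 10.5 CPM in old controls and 70.1 ± 14.5 CPM after Mito-Q (log2 0.98, edgeR adjusted p = 0.352), and at 79.9 and 59.6 CPM in young control and CCCP mice. In Mito-Q mice against young controls Trp53 had the smallest p (log2 0.61, edgeR adjusted p = 0.632). Of 17 p53 target genes other than Btg2, 2 were lower with age, 2 higher with Mito-Q and 2 lower with CCCP. Cdkn1a, the cyclin-dependent kinase inhibitor p21, averaged 367 ± 57.3, 12.1 ± 10.3, 18.3 ± 13.7 and 465 ± 41.7 CPM in young control, young CCCP, old control and old Mito-Q. Its log2 changes were -4.33 with age, 4.67 with Mito-Q and -4.93 with CCCP (edgeR adjusted p = 0.000202, 8.1e-05 and 1.01e-06). The other called targets were the polo-like kinases Plk3 with age and Mito-Q (edgeR adjusted p = 0.0113 and 0.0271) and Plk2 with CCCP (log2 -3.28, adjusted p = 0.000802). Plk3 averaged 47.5 ± 19.9 CPM in young controls, 1.21 ± 2.09 CPM in old controls, with a median of 0 reads, and 37.9 ± 11.01 CPM after Mito-Q. Its fitted log2 changes, -5.36 and 5.03, are no measure of size at such counts, as they were -11.39 and 11.07 without old control 2, and the calls were lost in 2 and 6 of 29 alternative analyses. The list's median log2 changes were -0.34, 0.51 and -0.21, beside 0.16, -0.12 and 0.21 over all genes.

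Genes of the cell cycle were followed by 2 lists. Of 18 genes of G1 control, Cdkn1a was the 1 called in each of the 3 comparisons, and Rbl1 had the smallest p in Mito-Q mice against young controls (log2 -0.99, edgeR adjusted p = 0.556). Of 18 proliferation genes, Mki67, which encodes the Ki-67 antigen, was lower in old controls, at 47.1 ± 11.4 against 146 ± 43.9 CPM (log2 -1.63, edgeR adjusted p = 0.00751). This call was lost without old control 2 (edgeR adjusted p = 0.135) and in the fit of these 2 groups alone. The list's median log2 changes were -0.48 with age, 0.28 with Mito-Q and 0.66 with CCCP, beside 0.16, -0.12 and 0.21 over all genes. After Mito-Q and CCCP 0 of the 18 were called by edgeR or DESeq2 (3 and 4 at an unadjusted p below 0.05), with the smallest p at Ccna2 (log2 1.19, edgeR adjusted p = 0.396) and Cdc20 (1.37, adjusted p = 0.297).

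Immediate early genes, which cells transcribe within minutes of a stimulus and to which Btg2 belongs, differed between groups in the same directions as Btg1 and Btg2. Of 24 such genes other than Btg2, 20 were called lower with age, 20 higher with Mito-Q and 22 lower with CCCP, with median log2 changes of -3.42, 4.09 and -4.10. The shares of all genes called in those directions were 1.17%, 0.526% and 0.652%. Zfp36, given above, is 1 of the 24. Against young controls edgeR called 0 of 24 in Mito-Q mice, with 10 at an unadjusted p below 0.05, 3 called by DESeq2 and a median of 0.64, and Ier2 had the smallest p (log2 1.39, edgeR adjusted p = 0.142). Fos averaged 1952 ± 396 CPM in young controls and 15.03 ± 11.7 CPM after CCCP (log2 -7.02, edgeR adjusted p = 5.73e-10). Nr4a1, an orphan nuclear receptor, averaged 2606 ± 1192 CPM in young and 9.49 ± 6.58 CPM in old controls (log2 -8.11, edgeR adjusted p = 2.01e-07). The mean log2 CPM of the 24 genes was 7.50 to 8.15 in young controls, 3.32 to 3.58 after CCCP, 3.96 to 4.56 in old controls and 8.23 to 8.82 after Mito-Q. The libraries thus formed a high and a low cluster with none between. With group means removed, the Pearson r of this mean over the 17 libraries was 0.045 with Btg1 and -0.0031 with Btg2. It was -0.070 with Btg3, -0.085 with Tob1 and 0.537 with Tob2. Without young CCCP 3 the values were 0.028, 0.203, 0.060, 0.261 and 0.519 for Btg1, Btg2, Btg3, Tob1 and Tob2. The part of this group of genes in the member levels was not tested.

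**Figure D5:**
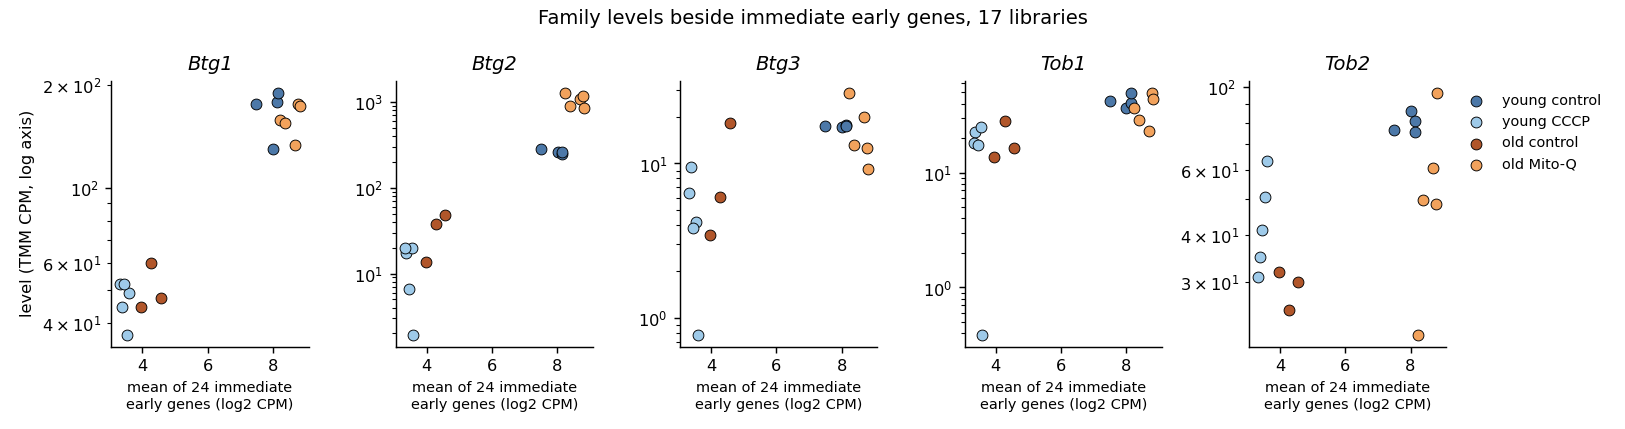
TMM-scaled CPM of each member, on a logarithmic vertical axis, against the mean log2 CPM of 24 immediate early genes without Btg2, 1 point per library, coloured by group. Young CCCP and old control libraries lie at 3.32 to 4.56 on the horizontal axis and young control and old Mito-Q libraries at 7.50 to 8.82, with no library between.

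Markers of other blood cells were measured in the same libraries. The summed level of 10 neutrophil genes ran from 221 to 2007 CPM in young controls, 593 to 16099 CPM after CCCP, 592 to 1301 CPM in old controls and 281 to 13527 CPM after Mito-Q. S100a8, the most abundant, averaged 171 CPM in young controls, 2533 CPM after CCCP, 341 CPM in old controls and 1804 CPM after Mito-Q. None of the 10 was at 0 in all libraries of a group, and 1, Elane, was called after CCCP. The sums overlapped between all groups. Young CCCP 2, the lowest of its group at 593 CPM, had Btg1 and Btg2 at 37.0 and 20.0 CPM, and old Mito-Q 2, the lowest of its group at 281 CPM, had them at 176 and 1174 CPM. Sums for 8 monocyte and dendritic cell genes had medians of 36.1, 171, 50.3 and 115 CPM in young control, young CCCP, old control and old Mito-Q, and those for 8 erythroid genes 193, 534, 149 and 229 CPM. The part of other cells in the member levels was not tested. In each of the lists for monocytes and dendritic cells, B cells, T and NK cells, erythroid cells, megakaryocytes, mast cells and basophils, endothelium and stroma, lineage gate antigens and HSCs, at most 1 gene was called in any of the 4 comparisons.

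The genes whose pattern over the 17 libraries was most like that of each member were found by Pearson's r of log2 CPM among 11492 named protein-coding genes. For Btg2 these were Klf9 (r = 0.972), Ier3 (0.960), Junb (0.953), Cdk11b (0.950) and Id3 (0.949). For Btg1 they were Klf2 (0.973), Pde4b (0.969), Ctla2a (0.965), Nr4a2 (0.961) and Ccnl1 (0.957). Because the libraries form 2 clusters, differences between groups enter these values. With group means removed, r with Btg2 was 0.79 for Klf9, 0.69 for Ier3, 0.39 for Junb, 0.11 for Cdk11b and 0.52 for Id3. Taken the same way, r with Btg1 was 0.49 for Klf2, 0.34 for Pde4b, 0.47 for Ctla2a, 0.04 for Nr4a2 and -0.23 for Ccnl1. All 17 libraries entered these values, young CCCP 3 included. Btg1 and Btg2 themselves had r = 0.886 over the 17 libraries and -0.11 with group means removed.

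The genes most like Btg3 were Ramac (r = 0.894), Resf1 (0.886), Med29 (0.885), Jmjd6 (0.885) and Coq10b (0.882). Without young CCCP 3, where Btg3 had 4 reads, these values were 0.812, 0.792, 0.795, 0.774 and 0.769. The genes most like Tob2 were E2f3 (0.806), Foxp1 (0.791), Avl9 (0.791), Mafk (0.787) and Gnb2 (0.784), the lowest values of the 5 members over all 17 libraries. For Tob1 they were Rab18 (0.958), Pcyt1a (0.949), Wdyhv1 (0.949), Nifk (0.946) and Herpud2 (0.945). The Tob1 values rested on young CCCP 3, and without that library they were 0.709, 0.615, 0.755, 0.647 and 0.640.

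On GRCm38 the members, all protein-coding, lie on 5 chromosomes, and the counts are given per gene. Btg1 (ENSMUSG00000036478) is at chr10:96617006-96622809 and Btg2 (ENSMUSG00000020423) at chr1:134075170-134079120. Btg3 (ENSMUSG00000022863) is at chr16:78332637-78377192, Tob1 (ENSMUSG00000037573) at chr11:94211454-94215495 and Tob2 (ENSMUSG00000048546) at chr15:81848272-81858796. Genes named as copies of Btg1 had few reads, 0 to 11 for Btg1-ps1 and 0 to 23 for Btg1-ps2 per library, against at least 252 for Btg1. Reads of near-identical copies may be split between them, so these counts are uncertain.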

How the data were processed

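RNA was sequenced in bulk from sorted mouse HSCs in 17 libraries of 4 groups, with group and replicate taken from the sample labels. Reads were trimmed with Trim Galore and aligned with STAR 2.7 to GRCm38, per the submitters' processing notes. Which program and annotation release were used for counting, with which strand setting, and how duplicate reads were handled are not given in the sources used here. The authors deposited raw read counts per Ensembl gene, with 5 footer entries for reads in no gene, which were kept out of library sizes and tests and made up 37.7% to 76.2% of the entries. Gene names came from GENCODE M21 on that build, for 54723 of the 54838 IDs.

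All 17 libraries were fitted in edgeR 4.0.16 (R 4.3.3) without covariates, after TMM scaling and a filter by group (filterByExpr, minimum count 10), with quasi-likelihood dispersions estimated robustly. The two-sided F-test was adjusted by Benjamini and Hochberg over 24523 genes, and an adjusted p below 0.05 was called. CPM is relative to the reads in tested genes, scaled by TMM. Log2 CPM used a prior count of 2. Intervals are 95%, and a count of 3 reads was the floor, both for error of the counts or libraries as given, since without molecular identifiers PCR copies cannot be told from separate molecules. Libraries of a group were compared for duplicates, and the most alike pair had a chi-square of 20.9 per degree of freedom. Groups share replicate numbers in the labels, but the deviations of 22 same-numbered pairs had correlations of -0.11 to 0.29, with 5 above 0.1, so the numbers were not taken as pairs. Promoter sequences came from RefSeq (GRCm38.p6) and matched 5 of 5 members.

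The members and lists were chosen with earlier results of these data known. Named by rule were the members, Btg4, up to 3 called genes of smallest p per list, direction and comparison or else the gene of smallest p, the 3 most abundant genes of a marker list, and the 5 genes most like each member. The sort markers Ly6a, Slamf1 and Cd48, and Elane, were chosen after their values were seen, and of the list rule not every gene is printed. Alternatives covered scaling, filters, dispersions, DESeq2 1.42.0, limma-voom (limma 3.58.1), fits of 2 groups, a replicate block and libraries left out. The procedure was also run on simulated counts, drawn with the fitted spread and without outlying libraries. That run cannot show how it handles young CCCP 3, old control 1 or young control 3. No protein sequences were used here.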

Additional observations from a re-analysis of the deposited data

Results flagged for a closer look

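Btg4, which in mice is known for its role in the oocyte, was low in most libraries. It was at 30.3 CPM (156 reads) in young CCCP 3, and the gap to the next library of that group took 0.895 of the group's whole range, beyond Dixon's 95% limit for 5 libraries. The test was made on 18 groups of 4 or 5 libraries, of which 1 passed the limit, and chance passes about 1 in 20. Young CCCP 3 is the library with the lowest correlation with the others (0.682) and the largest share of reads outside genes, and the part these had in the value was not tested. Old control 1, which also stands apart, had 116 reads of Btg4 (13.8 CPM), against 3 and 1 reads in the other old controls, a group of 3 that was not tested for outlying values. Btg4 was not called in any comparison.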

How the results depend on the processing

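The 29 alternative analyses changed the number of genes called more than the members' calls. Genes called with all libraries and the chosen settings were 415 (age), 133 (Mito-Q against old control), 176 (CCCP), 35 (Mito-Q against young control), 704 (old control against CCCP) and 337 (Mito-Q against CCCP), in which order counts follow. DESeq2 called 1423, 548, 653, 223, 2102 and 1253. Without young control 3 and young CCCP 3 the counts were 1271, 341, 68, 1972 and 791, CCCP against young control aside, and without young CCCP 3 and old control 1 (chosen after seeing the data) 1306, 384, 66, 2072 and 602. Without a count filter they were 324 (CCCP), 90 (Mito-Q against young control) and 702 (Mito-Q against CCCP). With 50 or more counts in at least 3 libraries, 1124 were called between old control and CCCP. Fits of the compared groups alone called 186 (age), 111 (CCCP) and 52 (old control against CCCP), and limma-voom 54 (Mito-Q against young control) and 205 (old control against CCCP). Leaving out 1 library gave 125 to 755, 79 to 219, 129 to 196, 14 to 54, 32 to 1543 and 207 to 512 genes. The age count was 125, 140 and 684 without old control 2, 3 and 1, 243 and 255 without young control 1 and 4, and 755 without young CCCP 3, and the Mito-Q count 79 and 81 without old control 2 and 3 and 219 without young CCCP 3. Leaving out 1 library gave 2 to 3, 1 to 2, 2 to 2, 0 to 1, 0 to 1 and 2 to 2 members. Old Mito-Q against young control had 1 member called, Btg2, without a filter, with RLE factors, in the fit of the 2 groups, with DESeq2, with limma-voom, without young CCCP 3 or old control 1 and with either pair of libraries left out. Old control against CCCP had 1 called without a filter, with DESeq2, without old control 1 and without young CCCP 3 and old control 1. Signs turned only for uncalled differences. Tob1 between old control and CCCP was -0.09 without young CCCP 3, -0.19 without old control 2 and -0.10 without young control 3 and young CCCP 3, against 0.22, and ran up to 0.46 with 1 library left out. Btg1 there ran from -0.038 without old control 2 to 0.25, and Btg3 from -0.074 without old control 3 to 1.36. Btg3 between Mito-Q and young control ran from -0.35 to 0.080, with positive values without Mito-Q 2, 4 or 5. The cause of these changes was not tested. With the replicate block, 404, 130, 168, 40, 615 and 465 genes were called and the members called stayed at 2, 2, 2, 0, 0 and 2, with Btg2 between Mito-Q and young control at 2.14 (edgeR adjusted p = 0.054). The median log2 change of all genes moved from 0.16 to 0.28 (age) and from -0.12 to -0.25 (Mito-Q) with upper-quartile factors, and from 0.21 to 0.33 (CCCP) and -0.22 to -0.38 (Mito-Q against CCCP) with library totals. Without old control 1 these medians turned sign for age (-0.35) and Mito-Q (0.31), and that of old control against CCCP went from -0.15 to -0.76. Calls with age split as 128 higher and 287 lower, but as 171 and 251 with RLE and 190 and 237 with upper-quartile factors, 404 and 280 without old control 1, and 651 and 655 without young CCCP 3 and old control 1. Among the members, relative counting error is largest for Tob1, Btg3 and Btg2 in young CCCP 3, at 2, 4 and 10 reads.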

Other observations

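Within groups, members varied together to different degrees or in opposite directions, which is given as a description without a test. With group means removed, Btg2 and Btg3 had a Pearson r of 0.851 over the 17 libraries, and 0.689 without young CCCP 3. Btg2 and Tob1 had 0.816 and 0.378, so that value rested on young CCCP 3. Btg3 and Tob1 had 0.639 and -0.120, so that value also rested on it. Tob2 had negative values with every other member, at -0.598 with Btg3, -0.442 with Btg2, -0.345 with Tob1 and -0.145 with Btg1. Without young CCCP 3 these were -0.523, -0.284, -0.019 and -0.195. Btg1 had -0.14 with Btg3, -0.11 with Btg2 and 0.031 with Tob1, and -0.102, -0.047 and 0.469 without that library. All values share the libraries, their depth and their scaling.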
